A study of Homo sapiens with 2 samples.

Results

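The genes described here are 10 members of bone morphogenetic protein (BMP) signalling, chosen by symbol from the 52402 gene symbols of a human RNA sequencing study. They are the inhibitors of DNA binding ID1, ID2 and ID3, the pathway inhibitors SMAD6, SMAD7 and BAMBI, the ligands BMP2, BMP4 and BMP7, and the receptor BMPR1A. RNA came from DLD1, an established colorectal adenocarcinoma line. The study compared 1 library of control cells (genotype wild type) with 1 library of cells labelled as knocked out for HERV-R, an endogenous retrovirus of the human genome, and its title names the tumorigenic traits of such cells. The second is called the HERV-R KO library, after its label. Both groups carry the same protocol text, in which Cas9 and guide RNA vectors were introduced by lipofection and colonies were selected under hygromycin. The sources used here name neither the vectors given to the control nor the number of clones behind a library.

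BMP ligands are secreted dimers that bind type I and type II receptor kinases. The type I receptor then phosphorylates SMAD1, SMAD5 and SMAD9, which enter the nucleus with SMAD4 and switch on target genes, among them the ID genes and the inhibitors SMAD6, SMAD7 and BAMBI, which feed back on the pathway. ID proteins lack a DNA-binding region and hold E proteins, a class of basic helix-loop-helix (bHLH) transcription factors, away from DNA. In the colon, BMP signalling is known for opposing the stem cell programme of the crypt base.

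The control library held 21881122 counts and the HERV-R KO library 16406308. Values are counts per 1000000 (CPM). Since each group was a single library, the spread between cultures is unknown and the genotype could not be tested. Folds are ratios of CPM with exact 95% counting intervals (Clopper-Pearson), which cover counting error only and describe these 2 libraries. A gene was called at a log2 ratio, with 1 CPM added to both values, of at least 1 or at most -1, among the 12644 genes whose mean was 1 CPM or more. By that rule 6.78% of all genes were at least 2-fold higher in the HERV-R KO library (857) and 5.69% at least 2-fold lower (719), and the median log2 ratio was 0.12. Other scalings shift the log2 ratio of CPM by -0.12 to -0.16 before the 1 CPM is added, and by less for low genes after it, and move this split to 601 higher and 879 lower with the trimmed mean of M values (TMM), 574 and 917 with the upper quartile, and 544 and 945 with the median of gene ratios. ERV3-1, which encodes the HERV-R envelope protein and was taken as the target, had 127 control counts and 125 in the HERV-R KO library (5.80 and 7.62 CPM). A gene-level count does not see a small edit, so this value does not check the label. Of 11 colon epithelial markers, 8 averaged at least 1 CPM, with 1 higher, 2 lower and 5 between, and the summed level of all 11 was 11052.5 (control) and 5707.8 CPM (HERV-R KO library). The keratins KRT18 (4966.5 and 1741.0 CPM, 2.85-fold lower) and KRT8 (4137.8 and 1875.5 CPM, 2.21-fold lower) were the lower genes, and the intestinal transcription factor CDX2 (99.5 and 298.2 CPM) was the higher one. EPCAM had 700.6 and 749.8 CPM, while CDX1 had 0 counts in both libraries. KRT20 also had 0, but its symbol stands on 2 rows and, as for ID3 below, this is not read as absence. The part of the marker differences in the results below was not tested. Of 9 fibroblast markers, 1 averaged at least 1 CPM (PDGFRB, 4.66 and 2.32 CPM). Of 5 endothelial and 5 blood markers, 0 averaged that much. COL1A2, COL3A1, CDH5, KDR and CD3E were at 0 in both libraries.

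Of the 10 members, 8 had a mean of 1 CPM or more. BAMBI was at least 2-fold higher in the HERV-R KO library, BMP2 at least 2-fold lower, and the other 6 lay between. These 2 calls among 8 genes stand beside 12.5% of all compared genes called in either direction. With a rule of 1.5-fold, 2 members were higher (BAMBI and SMAD6) and 2 lower (BMP2 and SMAD7), where 20.3% and 13.2% of all genes were. With a rule of 3-fold on the same scale 0 members were called, beside 0.933% and 1.81% of all genes. The median log2 ratio of the 8 was 0.02, with 4 above and 4 below 0. It was -0.10 to -0.14 with the other scalings. The group therefore did not move as a block, and members with the same role differed in direction. ID3 and BMP7 stood under the minimum.

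All 10 are protein-coding genes, placed here by the RefSeq table of GRCh38.p14. BAMBI (28677521 to 28682932) and BMPR1A (86755763 to 86932844) lie on the plus strand of chromosome 10. On chromosome 20, ID1 (31605289 to 31606510) and BMP2 (6767686 to 6780246) are on the plus strand and BMP7 (57168753 to 57266641) on the minus strand. ID2 is on chromosome 2 (8682056 to 8684461, plus), BMP4 on chromosome 14 (53949736 to 53956891, minus), SMAD6 on chromosome 15 (66702236 to 66782849, plus) and SMAD7 on chromosome 18 (48919853 to 48950965, minus).

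**Figure D1:**
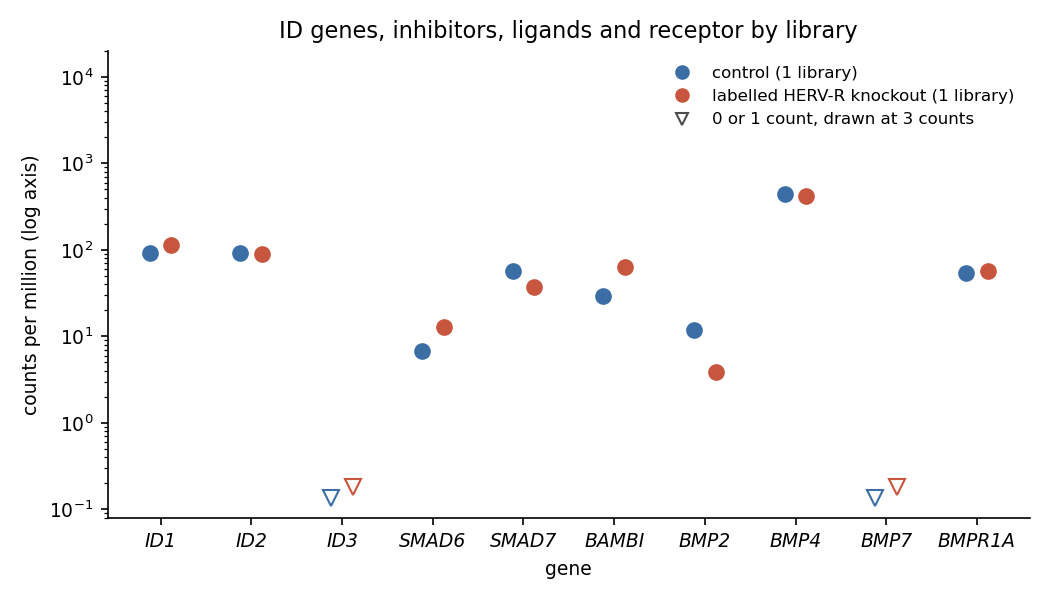
CPM of each of the 10 genes (log axis) in the control library and in the library labelled knockout, 1 point per library. Open triangles mark 0 or 1 count and are drawn at the level of 3 counts (0.137 and 0.183 CPM). BMP4 is high in both libraries, BMP2 and SMAD7 are lower and SMAD6 and BAMBI higher in the HERV-R KO library.

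The inhibitors went in different directions. BAMBI, a transmembrane decoy that resembles a type I receptor but lacks the kinase domain, had 634 control counts and 1032 in the HERV-R KO library, or 28.97 and 62.9 CPM. It was 2.17-fold higher in the latter (1.97 to 2.40), and 94.9% of all compared genes had a lower log2 ratio. Its log2 ratio of 1.09 fell just under the rule with each other scaling (0.94 to 0.97) and with a pseudocount of 5 CPM (0.999). SMAD6, an inhibitory SMAD that acts mainly on the BMP branch, had 148 and 208 counts, or 6.76 and 12.7 CPM. This is 1.87-fold higher in the HERV-R KO library (1.51 to 2.33), and its log2 ratio of 0.82 did not pass the rule.

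SMAD7, the inhibitory SMAD that acts on both the TGF-beta and the BMP branch, was lower. It had 1254 control counts and 616 in the HERV-R KO library, or 57.3 and 37.6 CPM, 1.53-fold lower (1.39 to 1.68), and its log2 ratio of -0.60 did not pass the rule. The opposite directions of the inhibitory SMADs do not depend on the scaling. There were 8.47 SMAD7 counts for each SMAD6 count in the control and 2.96 in the HERV-R KO library, so the ratio was 2.86-fold lower there (2.25 to 3.63). The count ratio of BAMBI to BMPR1A, the decoy against the receptor it resembles, was 0.540 in the control and 1.12 in the HERV-R KO library (2.07-fold higher; 1.81 to 2.36).

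**Figure D2:**
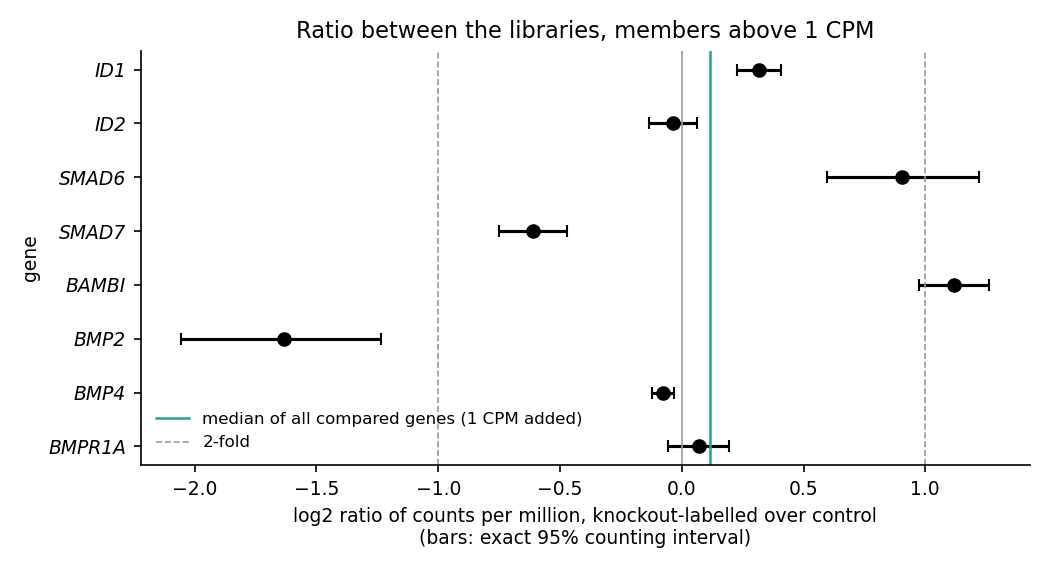
Ratio of CPM between the libraries (x axis, log2, no pseudocount) for the 8 genes that averaged at least 1 CPM. Points are ratios and bars are exact 95% counting intervals. BAMBI and SMAD6 lie to the right, SMAD7 and BMP2 to the left, and the interval of BMPR1A and that of ID2 include 0.

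Sequence before the start sites of SMAD6, BAMBI and ID1 is shown. SMAD6 and BAMBI are themselves targets of SMAD proteins, and ID1 is the best-known target of the pathway. They were chosen after their higher values had been seen. SMAD7, also a target, was lower (log2 ratio -0.60), and its windows are not printed, so the choice says nothing about a cause. The sequences are from RefSeq (GRCh38.p14), whose promoter table held 8 of the 10 members, all but BMP2 and BMP7. They lie on the plus strand at chr15:66701986-66702235 for SMAD6, chr10:28677271-28677345 for BAMBI and chr20:31605039-31605288 for ID1, and are printed 5′ to 3′. Those of SMAD6 and ID1 are the 250 bases before the RefSeq start, and that of BAMBI is the first 75 bases of the same window. Capitals mark GTCTAGAC in SMAD6, GGCGCC in BAMBI, and GTCT or its reverse complement AGAC in ID1.
SMAD6: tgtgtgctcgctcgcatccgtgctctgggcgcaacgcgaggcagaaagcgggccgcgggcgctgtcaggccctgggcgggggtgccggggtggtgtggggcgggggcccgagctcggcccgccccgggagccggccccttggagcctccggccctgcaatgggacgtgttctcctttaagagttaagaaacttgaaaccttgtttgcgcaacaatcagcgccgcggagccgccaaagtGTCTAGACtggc
BAMBI: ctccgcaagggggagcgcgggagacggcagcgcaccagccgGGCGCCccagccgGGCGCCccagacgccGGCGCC
ID1: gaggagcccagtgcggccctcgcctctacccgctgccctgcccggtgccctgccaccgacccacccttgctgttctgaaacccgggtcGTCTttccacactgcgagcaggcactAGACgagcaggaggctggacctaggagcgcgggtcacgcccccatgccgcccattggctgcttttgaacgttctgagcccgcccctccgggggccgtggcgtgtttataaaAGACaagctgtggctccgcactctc

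GTCTAGAC is the palindromic SMAD-binding element, made of GTCT and its reverse complement. It begins 12 bases before the SMAD6 start, and 0.182% of 35116 RefSeq windows of 250 bases hold it. GGCGCC, a GC-rich letter pattern that SMAD proteins are known to bind, occurs 3 times in the BAMBI stretch. The matches begin 209, 196 and 181 bases before the RefSeq start. GGCGCC is found in 16.4% of all windows. The BAMBI window is 81.2% G or C, against a median of 58% over all windows, so that share is not a like background for it. Of its 250 bases, 179 lie in an exon annotated by GENCODE, so the distances to the start depend on the annotation. BMP4 was the other member with GGCGCC. The short box GTCT, searched on both strands, occurs in 77.5% of windows, so its presence in 7 of the 8 members with an entry is no distinction. Of the other patterns searched, GGAGCC was present in 6 members and in 30.6% of windows, and the E-box CAGCTG in ID2 alone and in 14% of windows. A member is counted if any of its windows holds the pattern, and BMP4 and SMAD7 have several windows. Counts of members and shares of single windows are therefore not like measures. These matches are descriptions of letters, not binding sites.

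Among the ligands, BMP4 was abundant in both libraries and BMP2 was lower in the HERV-R KO one. BMP2 had 261 control counts and 63 in the HERV-R KO library, or 11.9 and 3.84 CPM. It was 3.11-fold lower (2.35 to 4.16), and only 2.56% of all compared genes had a lower log2 ratio (-1.42). The call held with each other scaling (-1.52 to -1.55) and ended with a pseudocount of 5 CPM (-0.94). BMP4 had 9652 and 6856 counts, or 441.1 and 417.9 CPM. That difference is 1.06-fold (1.02 to 1.09), small beside the range of all genes. For each BMP2 count there were 36.98 BMP4 counts in the control and 108.8 in the HERV-R KO library, a 2.94-fold difference (2.22 to 3.95). BMP7 had 0 control counts and 1 in the HERV-R KO library. Both are under 3 counts, the limit that a count of 0 allows, which is 0.137 CPM in the control and 0.183 in the HERV-R KO library. The 1 count is 0.061 CPM, and its own upper limit is higher than that for 0. No fold is given, and neither count is read as expression at this depth.

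Of 14 genes in a list of BMP ligands, 3 averaged at least 1 CPM. None was higher, 1 was lower (BMP2) and 2 lay between (median log2 ratio -0.21, against 0.12 for all genes). Beside this list and those below, 6.78% of all compared genes were called higher and 5.69% lower. The third was BMP8B, with 13.0 and 11.2 CPM. BMP3, BMP6, BMP10, BMP15, GDF2 and GDF6 had 0 counts in both libraries. BMP5, a ligand known from mesenchyme, had 0 and 4 counts.

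The receptor BMPR1A, a type I receptor kinase for BMP2 and BMP4, was close to level. It had 1175 control counts and 925 in the HERV-R KO library, or 53.7 and 56.4 CPM, a ratio of 1.05 (0.962 to 1.15). Its log2 ratio of 0.07 becomes -0.05 to -0.09 with the other scalings, so no direction is given. Its pseudogenes BMPR1APS1 and BMPR1APS2 had 2 and 4 counts and 1 and 2 counts, so few reads were assigned to these copies. Of 13 genes in a list of receptors and coreceptors, 8 were measured: 1 was higher, 0 lower and 7 between (median log2 ratio 0.02). The higher one was ACVR2A, a type II receptor shared by activins and BMPs, with 26.6 and 54.6 CPM (2.06-fold; 1.85 to 2.29), and it lost the call with each other scaling (0.86 to 0.89). ACVR2B, its paralog, had 25.1 and 16.3 CPM (log2 ratio -0.59). BMPR2, the BMP type II receptor, had 48.8 and 45.1 CPM, and the type I receptor BMPR1B 13.5 and 13.3 CPM. ACVRL1 and ENG, receptor and coreceptor of endothelial cells, had 4 and 5 counts in the control and 0 in the HERV-R KO library.

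Of 24 SMAD proteins and regulators, 23 were measured, with 2 higher, 0 lower and 21 between (median 0.08). Besides BAMBI, the higher gene was SMAD1, a signal-carrying SMAD of the BMP branch, which had 296 and 486 counts, or 13.5 and 29.6 CPM. It was 2.19-fold higher in the HERV-R KO library (1.89 to 2.54), and under the rule with each other scaling (0.93 to 0.96). SMAD5, which carries the same signal, had 89.0 and 120.7 CPM (log2 ratio 0.43). SMAD9, the remaining one, had 7 and 3 counts. There were 6.58 SMAD5 counts for each SMAD1 count in the control and 4.07 in the HERV-R KO library (1.62-fold lower; 1.38 to 1.90). SMAD4, the common partner, had 101.7 and 107.3 CPM, and the ubiquitin ligase SMURF1, which marks SMAD1 and SMAD5 for degradation, 46.2 and 46.3 CPM. The lowest log2 ratio of this list was that of TOB1, a repressor of BMP-driven transcription, at -0.77 (49.6 and 28.7 CPM).

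Secreted antagonists bind ligands outside the cell. Of 20 genes in that list, which also holds the proteases BMP1, TLL1 and TLL2 that cut the antagonist chordin, 4 were measured. None was called in either direction, and all 4 log2 ratios lay below 0 (median -0.60, from -0.90 to -0.30). NBL1 had 378.3 and 228.1 CPM, and TWSG1, which modulates chordin, had 289.5 and 207.3 CPM. FSTL3, which binds activins more than BMPs, had 27.5 and 14.3 CPM and was called lower with each other scaling. The remaining measured gene was BMP1, a protease and not an antagonist, with 32.7 and 26.3 CPM (log2 ratio -0.30). The classical antagonists NOG, CHRDL1 and FST had 0 counts in both libraries. GREM1 also had 0, but its symbol stands on 4 rows and, as for ID3, this is not read as absence. CHRD itself had 14 control counts and 1 in the HERV-R KO library.

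**Figure D3:**
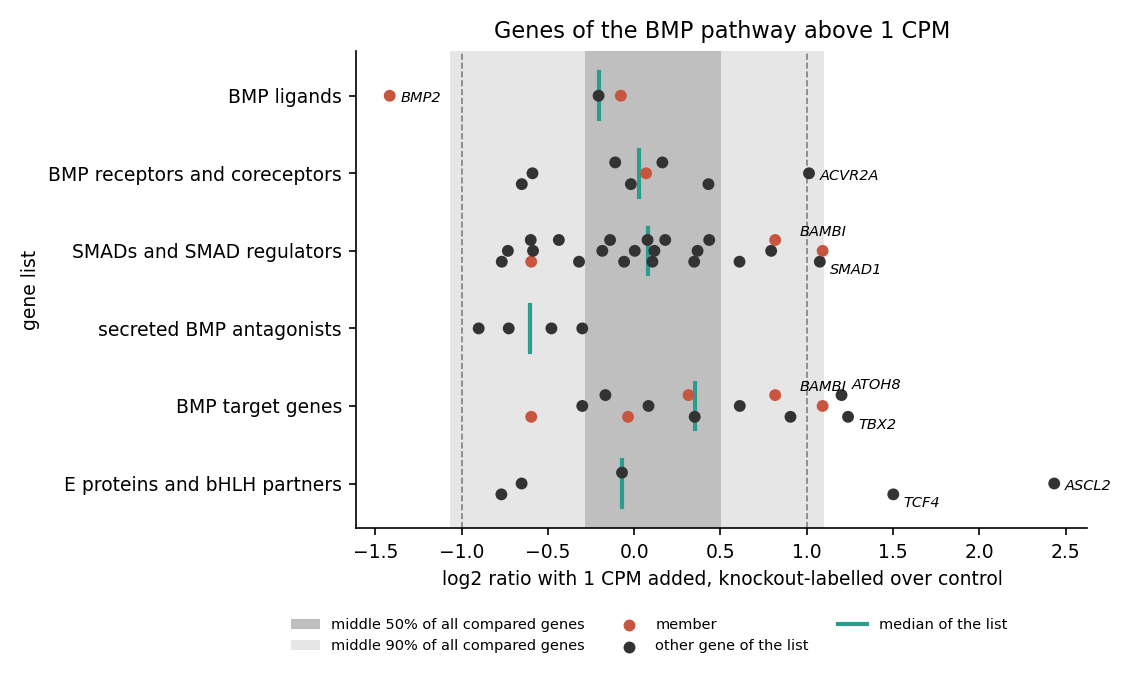
Log2 ratio (x axis, 1 CPM added) of every gene that averaged at least 1 CPM in 6 lists of the BMP pathway. Orange points are members, black points are other genes of a list, green bars are list medians, dashed lines mark 2-fold, and the grey bands hold the middle 50% and 90% of all 12644 compared genes. Names are given for the genes past the rule. Most points lie inside the bands, with BMP2, ATOH8, TBX2, TCF4 and ASCL2 outside.

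The ID genes, the usual readout of BMP signalling, differed little. ID1 had 2017 control counts and 1885 in the HERV-R KO library, or 92.2 and 114.9 CPM, 1.25-fold higher (1.17 to 1.33). Its log2 ratio was 0.31, above that of 63.4% of all compared genes, and 0.16 to 0.19 with the other scalings. ID2 had 2027 and 1482 counts, or 92.6 and 90.3 CPM, a ratio of 0.975 (0.911 to 1.04). The count ratio of ID1 to ID2 was 0.995 in the control and 1.27 in the HERV-R KO library (1.28-fold higher; 1.17 to 1.40), which no scaling alters. ID2-AS1, which overlaps ID2 on the opposite strand, had 7 and 13 counts. The kit marks strand, but the sources used here do not say whether the counting used it. ID4, which is in the list of targets but not a member, had 5 and 1 counts.

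ID3 had 0 counts in both libraries, and this 0 is not read as absence. The symbol ID3 stands on 2 rows of each table, both at 0. The gene is on chromosome 1, minus strand, at 23557926 to 23559501 in GRCh38. Of 20 protein-coding genes that lie at least partly within 500 kb of ID3, itself included, 6 stand on 2 rows, and all 6 had at most 60 counts over both libraries together (median 2). HNRNPR, which encodes an RNA-binding protein that most cells make, had 18 and 30 counts, and the cell cycle factor E2F2 had 14 and 20. Of the 14 genes on 1 row, 3 had so few counts, and their median was 2413. RPL11, a ribosomal protein gene 131.9 kb away, had 25170 and 15503 counts. The part of the counting in this was not tested.

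**Figure D4:**
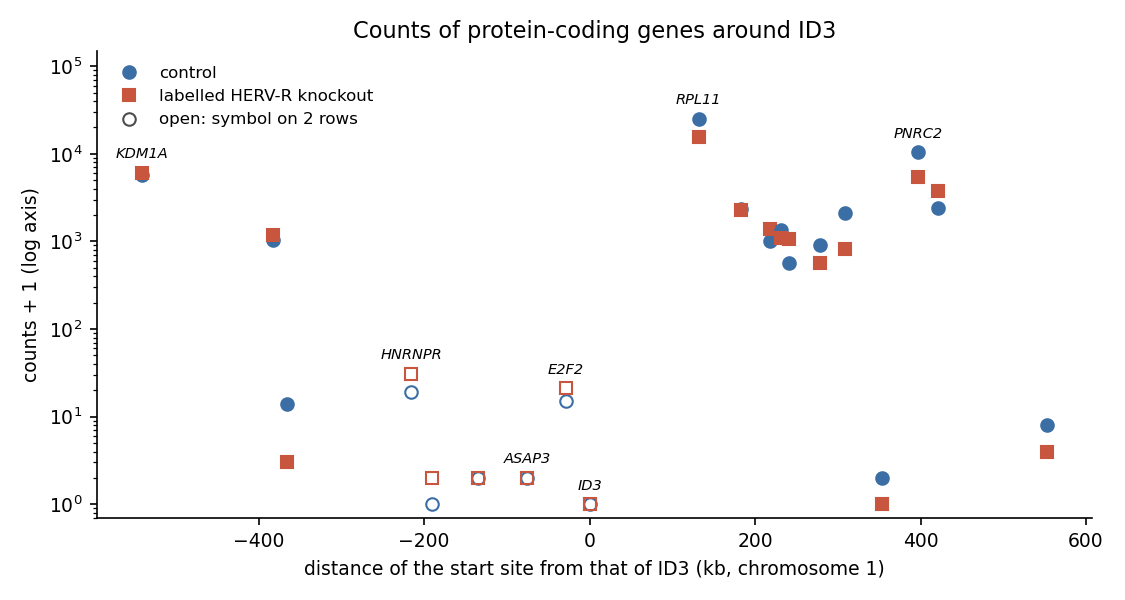
Counts plus 1 (log axis) of 20 protein-coding genes on chromosome 1 against the distance of their start sites from that of ID3 in kb. Circles are the control library, squares the HERV-R KO library, and open symbols mark genes whose symbol stands on 2 rows. The 6 open pairs, ID3 among them, form a stretch of low counts. RPL11 is next to it on one side. On the other side the next gene is HTR1D, on 1 row and also low (13 and 2 counts). Beyond HTR1D lie LUZP1 (1037 and 1175 counts) and KDM1A (5722 and 6048 counts).

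Of 21 BMP target genes, which include ID1, ID2, ID3, SMAD6, SMAD7 and BAMBI, 13 were measured. By the rule 3 were higher, 0 lower and 10 between, beside 6.78% of all compared genes higher and 5.69% lower. Their median log2 ratio was 0.35, against 0.12 for all genes. The called genes were BAMBI, ATOH8 and TBX2. BAMBI is also counted in the list of SMAD regulators, and it lost the call with each other scaling. ATOH8, a bHLH factor, had 23 and 61 counts, or 1.05 and 3.72 CPM (3.54-fold higher; 2.16 to 5.99). TBX2, a T-box repressor, had 45 and 102 counts, or 2.06 and 6.22 CPM (3.02-fold higher; 2.11 to 4.39). Both are low, and with a pseudocount of 5 CPM their log2 ratios were 0.53 and 0.67. TBX3, a close relative of TBX2, had 96.6 and 181.9 CPM (log2 ratio 0.91). The homeobox targets MSX1 and MSX2 had 17.2 and 22.2 CPM and 39.9 and 42.4 CPM. SMAD7 was the lowest of the list.

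The proteins that ID1 and ID2 bind were also looked at. Of 12 E proteins and bHLH partners, 5 were measured, with 2 higher, 0 lower and 3 between (median -0.07). TCF3, the E protein that gives rise to E12 and E47, had 227.2 and 216.3 CPM. TCF12, another E protein, had 204.8 and 129.9 CPM (log2 ratio -0.65). TCF4, the third E protein, was higher from a low level, with 32 and 98 counts, or 1.46 and 5.97 CPM (4.08-fold; 2.72 to 6.29), and its log2 ratio of 1.502 was 0.76 with a pseudocount of 5 CPM. ASCL2, a bHLH factor of crypt stem cells, was the other higher gene, with 740 and 3072 counts, or 33.8 and 187.2 CPM (5.54-fold; 5.11 to 6.01). Its log2 ratio was 2.43, and the call held with each other scaling, a pseudocount of 5 CPM (2.31) and a 3-fold rule. HES1, a Notch target, had 121.4 and 70.8 CPM.

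Levels can be set between genes only per length. Per kilobase of annotated exon (GENCODE release 29), BMP4 stood highest, at 143.1 CPM per kilobase in the control and 135.6 in the HERV-R KO library. ID1 followed at 74.8 and 93.2, and ID2 at 42.0 and 41.0. BAMBI and SMAD7 were neighbours in the control, at 12.5 (11.6 to 13.5) and 11.4 (10.8 to 12.03), whose counting intervals overlap. They stood apart in the HERV-R KO library, at 27.2 and 7.46. BMPR1A had 4.71 and 4.94. SMAD6 was the lowest of the 8 in the control at 0.790, below BMP2 at 3.31. In the HERV-R KO library BMP2 (1.07; 0.819 to 1.36) and SMAD6 (1.48; 1.29 to 1.70) had overlapping intervals. Exon lengths sum all annotated transcripts, so the order depends on which are used, and no spread between cultures is known.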

How the data were processed

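The authors deposited 1 table of raw counts per gene symbol for each of 2 libraries, as whole numbers without normalization. TopHat and GRCh38 are the aligner and build named in the submitters' processing notes. TopHat's version and the counting program, with its annotation, strand setting and filters, were not given in the sources used here. Rows of 1 symbol were summed (58173 rows, 52402 symbols, 2687 of them on more than 1 row) and scaled by the column total to CPM. Log2 ratios are knockout-labelled over control with a pseudocount of 1 CPM, which understates changes of low genes. Ratios of CPM have exact 95% intervals conditional on the summed count (scipy 1.17.1), and ratios of 2 genes have exact conditional intervals. PCR duplicates are not independent molecules, so these are too narrow where duplicates were counted. For a count of 0 the upper limit was set at 3 counts.

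Other scalings used edgeR 4.0.16 (TMM, upper quartile) and DESeq2 1.42.0 (median of gene ratios), for library sizes only. The procedure was tested on simulated counts with Poisson counting error only and planted changes larger than 2-fold. These hold no spread between cultures, so that test says nothing about such spread or about smaller changes. The members and lists were chosen with earlier results of these data known. All members are named, and of each other list the genes past the rule or, where none passed, the 2 most abundant. Other genes, the ratios between members and the letter patterns were chosen after values were seen. 1 gene of the marker lists was left out and is not reported here.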

Additional observations from a re-analysis of the deposited data

How the results depend on the processing

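No paired analysis was possible because each group had 1 library, and no library could be left out. The members at least 2-fold higher numbered 0 with TMM, the upper quartile, the median of gene ratios, a pseudocount of 5 CPM and a 3-fold rule, and 2 with a 1.5-fold rule, against 1. Those lower numbered 0 with a pseudocount of 5 CPM and a 3-fold rule and 2 with a 1.5-fold rule, against 1. The members' median of 0.02 was -0.10 with TMM, -0.12 with the upper quartile, -0.14 with the median of gene ratios and 0.035 with no filter. Of all genes, 544 were higher with the median of gene ratios, 426 higher and 371 lower with a pseudocount of 5 CPM, 2567 and 1674 with a 1.5-fold rule, and 118 and 229 with a 3-fold rule.

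Called genes per list, in either direction, changed as follows. Ligands went from 1 to 0 with a pseudocount of 5 CPM and a 3-fold rule. Receptors went from 1 to 0 with each other scaling, a pseudocount of 5 CPM and a 3-fold rule, and to 3 with a 1.5-fold rule. SMADs and regulators went from 2 to 0 under the same settings and to 10 with a 1.5-fold rule. Antagonists went from 0 to 1 with each other scaling and to 2 with a 1.5-fold rule. Targets went from 3 to 2 with each other scaling and to 1 with a minimum mean of 5 CPM. They went to 0 with a pseudocount of 5 CPM and a 3-fold rule, and to 7 with a 1.5-fold rule. E proteins and partners went from 2 to 1 with a minimum of 5 CPM, a pseudocount of 5 CPM or a 3-fold rule, and to 4 with a 1.5-fold rule. A stricter rule or filter calls fewer genes by construction. A pseudocount of 0.1 CPM and the largest row of a symbol left every one of these counts within 1.5 times, as did symbols on 1 row only, an alternative added after seeing the data. The depth limits BMP7, ID4 and SMAD9, all under 10 counts per library.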

Other observations

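The pattern seen at ID3 was also looked for in the whole table, after its values had been seen. Of 17926 protein-coding symbols that stand on 1 row, 40.4% had at most 60 counts over both libraries together, and the median was 383. Of 971 that stand on 2 or more rows, 81.1% had at most 60 counts, the median was 0, and 54.4% had 0 counts in both libraries, against 21.8% of those on 1 row. The colon marker KRT20 and the blood marker PTPRC, both at 0 counts, also stand on 2 rows, and the antagonist GREM1, at 0 counts, on 4. The colon marker LGALS4, with 8 counts in each library, stands on 2 rows as well. SMURF1 stands on 2 rows and had 1010 and 759 counts.

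BAMBI and BMPR1A lie on chromosome 10, where the median log2 ratio of 456 compared genes was -0.17. The median was 0.17 over 325 genes of chromosome 20, which holds ID1 and BMP2, and 0.05 to 0.16 over the genes of chromosomes 1, 2, 14, 15 and 18, which hold the members ID3, ID2, BMP4, SMAD6 and SMAD7.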
